A study of Homo sapiens with 6 samples.

Results

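The genes described here encode the machinery that copies DNA and the regulators that start S phase. They were taken from a list of 49 gene symbols covering origin licensing, the replicative helicase, polymerases, the sliding clamp and its loader, nucleotide supply, cyclin E and E2F control, and the copying of chromatin. A transcript cluster, the set of probes that the array design assigns to a transcribed locus, stood for a gene where the platform annotation gave it exactly 1 symbol. On that basis 48 of the 49 genes were measured, of 22376 genes with such a cluster in all. RRM1, the large subunit of ribonucleotide reductase, has no cluster with 1 symbol and is not reported. Each of the 48 genes had 1 such cluster.

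The 6 arrays compared subclones of DLD-1 cells, a long-established colorectal adenocarcinoma line of human origin: 3 were labelled α-Cat and 3 Δα-Cat. Both had been kept for 96 h, untreated, in a 3D gel of type I collagen at 1 mg/ml. Neither the making of a subclone, nor its number of clones, nor whether replicates were independent cultures is stated in the labels. The p-values therefore measure only how far these arrays differ among themselves, and that variation could be technical. CTNNA1, the gene of αE-catenin, read 6.41 to 6.55 in Δα-Cat and 7.68 to 7.79 in α-Cat on the log2 scale. Averaged over 10 markers of colorectal epithelium, the level per array was 8.80 to 8.88 in Δα-Cat and 8.69 to 8.80 in α-Cat. The averages were 4.19 to 4.28 and 4.21 to 4.22 for 7 fibroblast markers, 4.0 to 4.03 and 4.06 to 4.14 for 7 leukocyte markers, and 4.15 to 4.29 and 4.25 to 4.28 for 6 endothelial markers. PTPRC, found on leukocytes in general, read 2.27 to 2.33, while CD14 and CD79A, of monocytes and B cells, read 4.93 to 5.89 and 5.65 to 5.79. Over all clusters limma called 0 of these markers. At an unadjusted p under 0.05, 4 epithelial markers were higher, and 1 epithelial and 1 leukocyte marker were lower. Over all genes 6.96% were higher and 6.16% lower at that threshold. Tested among clusters with 1 symbol only, CD14 was called lower (difference -0.64, adjusted p = 0.0409) and the epithelial cadherin CDH17 higher (0.72, adjusted p = 0.0355). That fit called 1.3% of all genes lower and 1.64% higher. CD14 and CDH17 were named after their values were seen, and their part in the results was not tested. Medians over all clusters were 4.02 to 4.07 per array, and the number of arrays limits the precision.

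Replication begins in G1, when the origin recognition complex with CDC6 and CDT1 loads the MCM2-7 ring onto origins. At the start of S phase, kinases and firing factors recruit CDC45 and the GINS complex and turn the loaded ring into an active helicase. Primase then lays primers, the clamp loader places PCNA, and the polymerases extend the new strands. Many of these genes are transcribed by E2F factors once cyclin-dependent kinases have inactivated the RB family, so their RNA peaks around the G1/S boundary and is low in resting cells. In a bulk culture, fewer cells in S phase and less RNA per cell cannot be told apart.

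Promoter windows of these genes were searched for E2F words and other motifs. Since many of these genes are transcribed by E2F factors, frequent E2F words in their windows are no independent finding. RefSeq promoter windows, from 250 bases before to 50 after a transcription start on GRCh38.p14, were found for 39 of the 48 genes, 8 of them with several windows, giving 50 windows. CCNE2, CDK2, E2F8, GINS4, MCM4, MCM5, POLD3, RPA2 and RPA3 have no entry. The E2F motif was searched on both strands as TTTNNCGC, with each N a C or a G, and as its shorter form TTNNCGC, which lies within the longer. The longer word was in 46.0% of the 50 windows, against 4.1% of 22198 windows of protein-coding genes and 3.31% of all 35116 windows. The shorter word was in 68.0%, against 16.1% of protein-coding windows. A CCAAT box, searched as CCAAT on both strands, was in 56.0% of the windows, against 34.7% of protein-coding windows and 80.0% of 30 windows of mitotic genes. The longer E2F word was in 13.3% of those mitotic windows. The CHR element of mitotic promoters, searched as TTTGAA on both strands, was in 0 of 50 windows, against 12.4% of protein-coding windows and 63.3% of the mitotic windows. The windows were GC-rich, with a median of 68.2%, against 62.3% for protein-coding genes. Among protein-coding windows at least as GC-rich as that median, 5.01% held the longer word, 23.7% the shorter and 2.83% the CHR word. A match is a stretch of letters, not a shown binding site.

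Of these windows, 5 are shown for genes whose levels are described further on. MCM6 (chr2:135876394-135876693, minus strand) has the most longer E2F words in a single window. PRIM1 (chr12:56752274-56752573, minus strand), RFC5 (chr12:118016453-118016752, plus strand) and CHAF1B (chr21:36385142-36385441, plus strand) are the genes with the most negative differences, and SLBP (chr4:1712270-1712569, minus strand) has the most positive. Capitals mark the shorter E2F word and the CCAAT box on either strand.
MCM6: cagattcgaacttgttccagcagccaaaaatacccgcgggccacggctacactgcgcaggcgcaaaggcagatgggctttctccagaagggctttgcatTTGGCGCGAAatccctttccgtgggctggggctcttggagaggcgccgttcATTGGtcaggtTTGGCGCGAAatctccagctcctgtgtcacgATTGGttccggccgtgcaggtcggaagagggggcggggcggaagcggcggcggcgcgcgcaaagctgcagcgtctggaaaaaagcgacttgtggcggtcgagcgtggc
PRIM1: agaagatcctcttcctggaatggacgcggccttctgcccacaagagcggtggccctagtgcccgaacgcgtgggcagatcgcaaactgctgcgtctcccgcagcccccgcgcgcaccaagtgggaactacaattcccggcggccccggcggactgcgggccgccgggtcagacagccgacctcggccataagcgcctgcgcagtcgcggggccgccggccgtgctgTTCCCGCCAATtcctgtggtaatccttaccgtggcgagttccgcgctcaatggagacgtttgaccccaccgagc
RFC5: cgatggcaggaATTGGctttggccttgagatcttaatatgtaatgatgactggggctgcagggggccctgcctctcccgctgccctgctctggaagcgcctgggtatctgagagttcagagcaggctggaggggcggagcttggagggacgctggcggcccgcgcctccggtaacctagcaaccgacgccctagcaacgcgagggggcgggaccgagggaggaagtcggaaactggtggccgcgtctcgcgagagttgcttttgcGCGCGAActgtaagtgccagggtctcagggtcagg
CHAF1B: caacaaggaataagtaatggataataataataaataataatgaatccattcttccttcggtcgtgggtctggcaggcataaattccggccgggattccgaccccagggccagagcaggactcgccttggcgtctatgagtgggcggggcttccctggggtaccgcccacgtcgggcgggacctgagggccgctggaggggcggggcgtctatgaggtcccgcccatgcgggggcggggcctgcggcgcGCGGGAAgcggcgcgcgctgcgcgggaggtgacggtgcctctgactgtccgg
SLBP: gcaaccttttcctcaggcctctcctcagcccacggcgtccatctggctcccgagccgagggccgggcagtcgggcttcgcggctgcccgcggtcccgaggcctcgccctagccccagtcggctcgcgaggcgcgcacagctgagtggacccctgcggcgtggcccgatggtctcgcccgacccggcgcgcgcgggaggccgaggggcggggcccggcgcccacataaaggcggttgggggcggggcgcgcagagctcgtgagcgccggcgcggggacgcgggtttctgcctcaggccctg
The MCM6 window holds 4 longer E2F words and 2 CCAAT boxes. Its E2F words lie in 2 stretches, each of which reads as the word on both strands. PRIM1, RFC5 and CHAF1B hold 0 longer words and 1 shorter word each, and in PRIM1 that word overlaps the CCAAT box. SLBP holds neither. Across the 39 genes, the 22 with a longer E2F word had a median log2 difference between subclones of -0.18, and the 17 without it had -0.23. Split by the CCAAT box, the 22 genes with it had a median of -0.21 and the 17 without it -0.17. Neither split was tested.

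All differences are given as Δα-Cat minus α-Cat on the log2 scale, with the standard error (SE) of a limma fit to all 6 arrays. Levels in each group are listed in the order of replicates 1, 2 and 3. A call needed an adjusted p under 0.05 by the Benjamini-Hochberg method over all 65526 usable clusters. The difference was negative for 46 of the 48 genes, with a median of -0.18, where the median over all genes was -0.0005. It was positive for RPA1 and SLBP. The differences were small, the largest being -0.64, and the fit called 1 gene, PRIM1, which fell. Over all 22376 genes the fit called 0.255% lower and 0.371% higher, and 0 of the 48 were called higher.

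At an unadjusted p under 0.05, 24 of the 48 genes were lower and 0 were higher. The corresponding shares over all genes were 6.16% lower and 6.96% higher, and 8.07% were lower among genes above a mean of 4.43, the 95th percentile of olfactory receptor genes, which served as a level for dim clusters. All 48 genes lay above that level, RPA3 nearest to it with a mean of 4.58. The groups did not overlap, with every Δα-Cat array below every α-Cat array, in 19 of the 48 genes, against 10.0% of all genes, and 0 of the 48 separated the other way, against 11.3%. The count of 24 was 9 without Δα-Cat replicate 2, 10 without α-Cat replicate 1, 11 without α-Cat replicate 3 and 34 without α-Cat replicate 2.

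**Figure D1:**
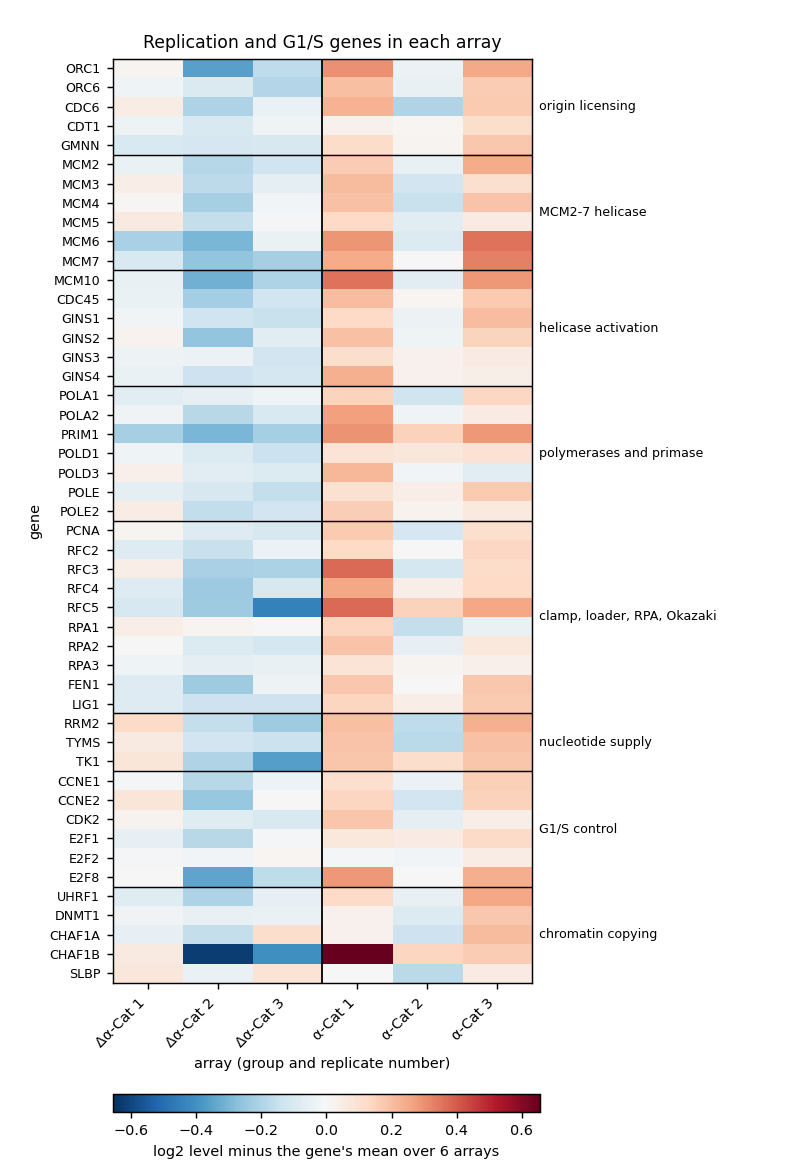
Levels of the 48 genes in each of the 6 arrays, as log2 level minus the gene's own mean over the 6 arrays; rows are genes grouped by role and columns are arrays. The mean of the 3 Δα-Cat columns is below that of the α-Cat columns in 46 of 48 rows. Δα-Cat replicate 1 is at or above α-Cat replicate 2 in 28 rows, and α-Cat replicate 2 is the lowest α-Cat array in 47.

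The arrays of a group did not sit at the same level. Averaged over the 48 genes, the log2 level was 7.29, 7.14 and 7.20 in Δα-Cat replicates 1, 2 and 3 and 7.50, 7.28 and 7.46 in α-Cat replicates 1, 2 and 3. The groups therefore overlapped in this mean, by Δα-Cat replicate 1 and α-Cat replicate 2. These arrays differ in number. Both groups had the same order, replicate 1 highest and replicate 2 lowest, and within each number Δα-Cat had the lower mean. α-Cat replicate 2 was the lowest α-Cat array for 47 of the 48 genes, POLD3 being the exception, and for 31.4% of all genes. Δα-Cat replicate 1 was the highest Δα-Cat array for 37 of the 48 genes and for 41.2% of all genes. In 28 of the 48 genes Δα-Cat replicate 1 was at or above α-Cat replicate 2, as it was in 11869 of all 22376 genes. What sets these arrays apart was not tested.

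Arrays with the same replicate number were also compared with each other. The median difference of the 48 genes was -0.18 between arrays numbered 1, -0.13 between those numbered 2 and -0.22 between those numbered 3, where the medians over all genes were 0.02, -0.02 and 0.002. The Δα-Cat array was lower for 46, 41 and 46 of the 48 genes in turn. For 40 genes it was lower in all 3 pairs, against 18.7% of all genes. The genes that were higher in Δα-Cat in pair 2 were RPA1, SLBP, POLA1, TYMS, DNMT1, PCNA and RRM2. Their differences in that order were 0.17, 0.13, 0.08, 0.05, 0.04, 0.02 and 0.006. With the replicate number as a block in the fit, 28 genes were lower at an unadjusted p under 0.05, against 6.2% of all genes. That fit called 1 of the 48 lower, CHAF1B, against 0.143% of all genes, and it did not call PRIM1.

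**Figure D2:**
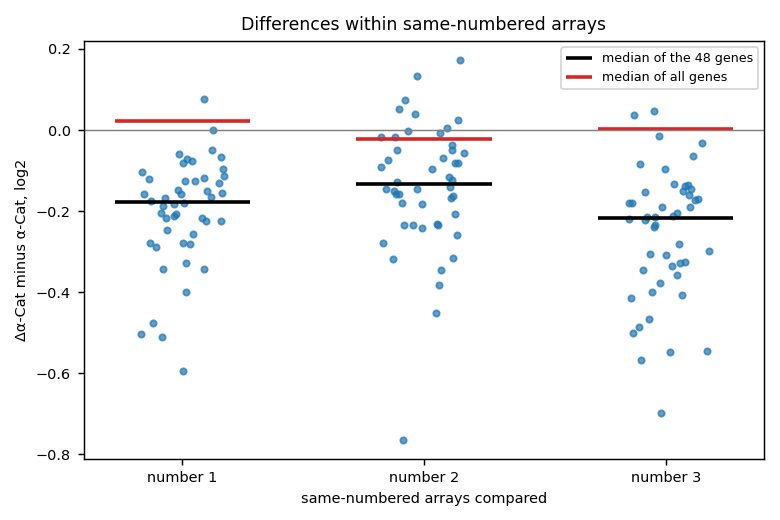
Difference of each of the 48 genes between same-numbered arrays, Δα-Cat minus α-Cat in log2 units; each point is a gene, the black bars are the medians of the 48 genes (-0.18, -0.13 and -0.22) and the red bars those of all genes. Most points lie below 0 in each of the 3 comparisons, and fewest do so for number 2.

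Origin licensing genes came first in the order of replication. All 5 had a negative difference, with a median of -0.21. The limma fit called 0 of them, and 3 were lower at an unadjusted p under 0.05, against 6.16% of all genes. ORC1, the ATPase subunit of the origin recognition complex that is made and destroyed with the cell cycle, read 6.49, 6.11 and 6.30 in Δα-Cat and 6.77, 6.43 and 6.72 in α-Cat, a difference of -0.34 (SE 0.12, adjusted p = 0.432). ORC6, its smallest subunit, read 6.04, 5.98 and 5.88 in Δα-Cat and 6.27, 6.03 and 6.24 in α-Cat, a difference of -0.21 (SE 0.08, adjusted p = 0.474). In both genes Δα-Cat replicate 1 lay above α-Cat replicate 2, so the groups overlapped. GMNN, which encodes geminin, the inhibitor of CDT1, read 5.59, 5.58 and 5.58 in Δα-Cat and 5.81, 5.71 and 5.86 in α-Cat, with no overlap and a difference of -0.21 (SE 0.06, adjusted p = 0.285). The 3 Δα-Cat arrays of GMNN were nearly identical. CDC6, the loader of the MCM ring, read 7.67, 7.41 and 7.57 in Δα-Cat and 7.84, 7.42 and 7.79 in α-Cat, a difference of -0.13 (SE 0.12, adjusted p = 0.83); α-Cat replicate 2 lay at the level of the Δα-Cat arrays. CDT1, the partner of CDC6, had a difference of -0.11, and its groups did not overlap.

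The 6 subunits of the MCM2-7 ring differed in the size of the difference. MCM7 read 8.55, 8.39 and 8.43 in Δα-Cat and 8.89, 8.65 and 8.98 in α-Cat, a difference of -0.38 (SE 0.10, adjusted p = 0.222), with every Δα-Cat array below every α-Cat array. MCM6 read 7.95, 7.86 and 8.12 in Δα-Cat and 8.45, 8.07 and 8.52 in α-Cat, a difference of -0.37 (SE 0.13, adjusted p = 0.403). MCM2 read 8.02, 7.87 and 7.93 in Δα-Cat and 8.23, 8.01 and 8.31 in α-Cat, a difference of -0.24 (SE 0.09, adjusted p = 0.43). In MCM6 and MCM2 the overlap came from α-Cat replicate 2 alone, which lay below the highest Δα-Cat array. The other subunits, MCM3, MCM4 and MCM5, had differences from -0.15 to -0.07, and their groups overlapped. All 6 genes were lower in Δα-Cat in each same-numbered pair, with differences from -0.05 for MCM3 in pair 2 to -0.55 for MCM7 in pair 3. None of the 6 was called by limma, while 3 were lower at an unadjusted p under 0.05, against 6.16% of all genes.

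Genes that turn the loaded ring into a helicase behaved alike in sign. All 6 had negative differences, between -0.38 and -0.13, with a median of -0.20. Of these, 5 were lower at an unadjusted p under 0.05, against 6.16% of all genes. CDC45, a subunit of the active helicase, read 6.85, 6.67 and 6.77 in Δα-Cat and 7.10, 6.91 and 7.07 in α-Cat, a difference of -0.26 (SE 0.08, adjusted p = 0.304). MCM10, needed to activate the helicase at origins, read 6.99, 6.72 and 6.83 in Δα-Cat and 7.39, 6.96 and 7.32 in α-Cat, a difference of -0.38 (SE 0.12, adjusted p = 0.378). CDC45 separated the groups, while in MCM10 Δα-Cat replicate 1 at 6.99 lay just above α-Cat replicate 2 at 6.96. GINS4, a GINS subunit, read 6.01, 5.91 and 5.94 in Δα-Cat and 6.29, 6.08 and 6.09 in α-Cat, a difference of -0.20 (SE 0.07, adjusted p = 0.439). The other subunits, GINS1, GINS2 and GINS3, had differences from -0.21 to -0.13, and only GINS3 of these separated the groups. None of the 6 genes was called.

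PRIM1, the catalytic subunit of primase that makes the RNA primers of both strands, was the called gene. It read 6.29, 6.21 and 6.29 in Δα-Cat and 6.80, 6.66 and 6.79 in α-Cat, with a gap between the groups wider than the spread within either. The means were 6.26 ± 0.05 in Δα-Cat and 6.75 ± 0.08 in α-Cat (SD, n = 3 each), so PRIM1 fell 1.40-fold, a log2 change of -0.49 (SE 0.06, adjusted p = 0.0431). The differences in pairs 1, 2 and 3 were -0.51, -0.45 and -0.50. The call was not stable: the adjusted p was 0.0626 with the replicate block and between 0.0885 and 0.19 when any 1 of the 6 arrays was left out, and over the 13 alternatives it ran from 0.011 to 0.19, with 6 calling PRIM1. The direction was negative in all 13, but the replicate block and several others cannot change the difference itself here.

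The other polymerase genes differed less. POLE, the catalytic subunit of the leading-strand polymerase epsilon, read 6.77, 6.73 and 6.67 in Δα-Cat and 6.93, 6.88 and 7.0 in α-Cat, a difference of -0.21 (SE 0.06, adjusted p = 0.275). POLD1, the catalytic subunit of polymerase delta, read 7.30, 7.24 and 7.19 in Δα-Cat and 7.42, 7.40 and 7.42 in α-Cat, a difference of -0.17 (SE 0.05, adjusted p = 0.342). Both separated the groups, and the α-Cat arrays of POLD1 had an SD of 0.0091. POLA1 and POLA2, subunits of the polymerase alpha complex that works with primase, had differences of -0.10 and -0.20. POLD3 and POLE2, accessory subunits, had differences of -0.09 and -0.16. The groups overlapped in these 4 genes.

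**Figure D3:**
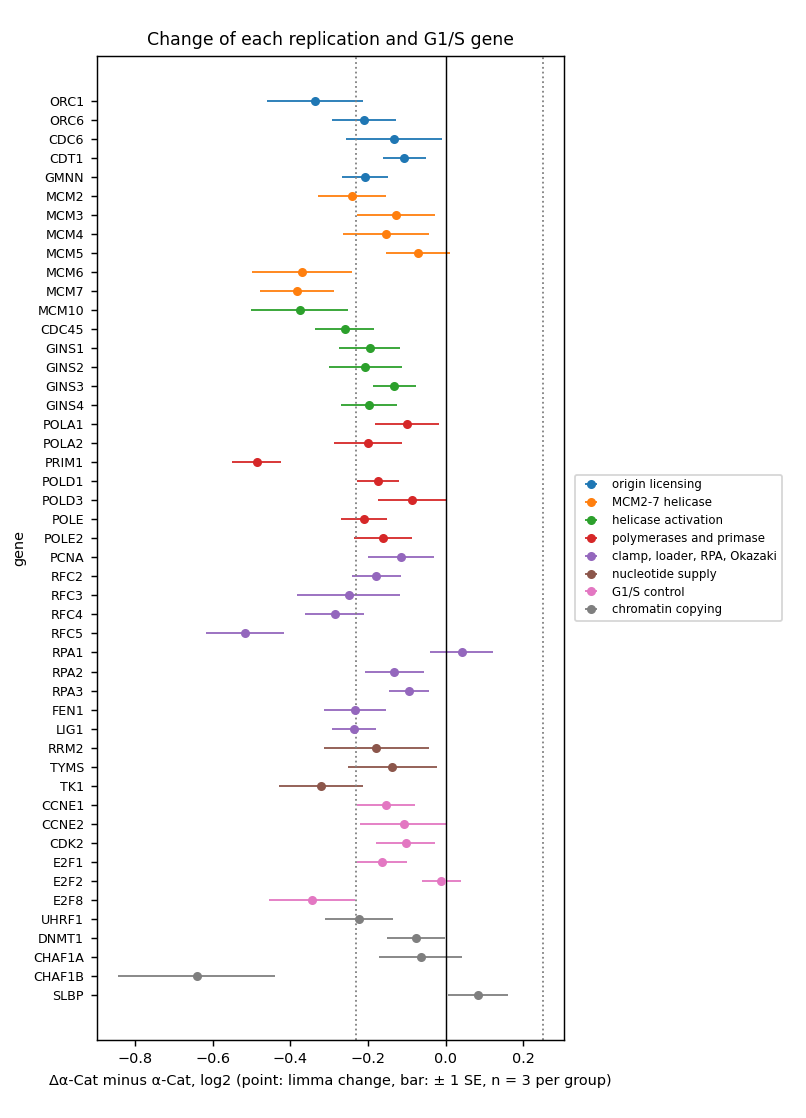
Fitted difference of each of the 48 genes, Δα-Cat minus α-Cat in log2 units, with bars of ± 1 SE (n = 3 per group), coloured by role; dotted lines mark the 5th and 95th percentiles (-0.23 and 0.25) over 14792 genes above 4.43. All genes but RPA1 and SLBP lie left of 0, and CHAF1B (-0.64), RFC5 (-0.52) and PRIM1 (-0.49) lie farthest left.

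Among the 10 genes of the clamp, clamp loader, single-strand binding and Okazaki fragments, 9 had a negative difference and 6 separated the groups. Over all genes, 10.0% separated the groups with Δα-Cat lower. RFC5, a small subunit of the clamp loader, read 6.93, 6.80 and 6.59 in Δα-Cat and 7.40, 7.18 and 7.29 in α-Cat, a difference of -0.52 (SE 0.10, adjusted p = 0.124). All 3 Δα-Cat arrays lay below all α-Cat arrays, with replicate 3 the lowest. RFC5 was called when the 22686 clusters with 1 symbol were tested alone (adjusted p = 0.041, and 0.041 to 0.37 over 13 alternatives). That fit called 2 of the 48 genes lower, PRIM1 and RFC5, against 1.3% of all genes, and 0 higher, against 1.64%. RFC4, another loader subunit, read 6.24, 6.09 and 6.22 in Δα-Cat and 6.58, 6.37 and 6.46 in α-Cat, a difference of -0.29 (SE 0.08, adjusted p = 0.25). LIG1, the ligase that seals Okazaki fragments, read 7.50, 7.45 and 7.45 in Δα-Cat and 7.72, 7.63 and 7.75 in α-Cat, a difference of -0.24 (SE 0.06, adjusted p = 0.207). Both RFC4 and LIG1 separated the groups.

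PCNA, the sliding clamp, read 8.95, 8.85 and 8.82 in Δα-Cat and 9.10, 8.82 and 9.04 in α-Cat, a difference of -0.11 (SE 0.08, adjusted p = 0.761). Its α-Cat replicate 2 was at the level of the lowest Δα-Cat array. The flap nuclease gene FEN1 and the loader subunits RFC2 and RFC3 had differences of -0.23, -0.18 and -0.25. FEN1 and RFC2 separated the groups and RFC3 did not. The subunits of RPA, which coats single-stranded DNA, differed in sign: RPA1 had 0.04, RPA2 -0.13 and RPA3 -0.10. RPA1 was higher in Δα-Cat in pairs 2 and 3, by 0.17 and 0.05, and lower in pair 1, with a difference of -0.10. Of the 10 genes of this role, 5 were lower at an unadjusted p under 0.05, against 6.16% of all genes. Limma called 0 of them.

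The 3 measured genes of nucleotide supply differed between pairs. TK1, thymidine kinase of the salvage route, read 9.76, 9.48 and 9.32 in Δα-Cat and 9.86, 9.80 and 9.87 in α-Cat, a difference of -0.32 (SE 0.11, adjusted p = 0.389). The α-Cat arrays of TK1 were close together, and the Δα-Cat arrays spread more widely, all below them. RRM2, the small subunit of ribonucleotide reductase, read 8.48, 8.20 and 8.12 in Δα-Cat and 8.55, 8.19 and 8.59 in α-Cat, a difference of -0.18 (SE 0.13, adjusted p = 0.767). TYMS, thymidylate synthase, read 9.35, 9.16 and 9.14 in Δα-Cat and 9.48, 9.11 and 9.48 in α-Cat, a difference of -0.14 (SE 0.11, adjusted p = 0.797). In RRM2 and TYMS, α-Cat replicate 2 and Δα-Cat replicates 2 and 3 lay close together and the groups overlapped. The RRM2 differences in pairs 1, 2 and 3 were -0.08, 0.006 and -0.47. Of the 3 genes, TK1 alone was lower at an unadjusted p under 0.05, against 6.16% of all genes, and limma called 0.

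The regulators of S-phase entry showed a negative difference in all 6 genes, with a median of -0.13. E2F8, an atypical E2F that represses and is itself an E2F target, read 6.80, 6.46 and 6.64 in Δα-Cat and 7.09, 6.80 and 7.04 in α-Cat, a difference of -0.34 (SE 0.11, adjusted p = 0.361). Δα-Cat replicate 1 and α-Cat replicate 2 were at almost the same level, and the other arrays separated. E2F1, an activator of S-phase genes, read 7.27, 7.15 and 7.32 in Δα-Cat and 7.40, 7.38 and 7.46 in α-Cat, a difference of -0.16 (SE 0.06, adjusted p = 0.466), with no overlap. CCNE1, which encodes cyclin E1, read 6.90, 6.74 and 6.88 in Δα-Cat and 7.03, 6.88 and 7.07 in α-Cat, a difference of -0.15 (SE 0.08, adjusted p = 0.585). CCNE2 and CDK2, the other cyclin E and its kinase, had differences of -0.11 and -0.10. E2F2, another activator, had the smallest difference of the 48 genes, -0.01, and read 6.32 to 6.38 over all 6 arrays. At an unadjusted p under 0.05, 2 of the 6 genes were lower, against 6.16% of all genes, and limma called 0.

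CHAF1B, a subunit of the chromatin assembly factor that places histones on new DNA, had the largest difference of the 48 genes. It read 7.99, 7.31 and 7.53 in Δα-Cat and 8.59, 8.07 and 8.09 in α-Cat, with means of 7.61 ± 0.35 in Δα-Cat and 8.25 ± 0.29 in α-Cat (SD, n = 3 each) and a difference of -0.64 (SE 0.20, adjusted p = 0.351). The groups did not overlap, but the arrays of each group spread widely, with number 1 highest in both. The paired differences were -0.59, -0.76 and -0.57. With the replicate block CHAF1B was called (adjusted p = 0.0495), and over 13 alternatives the adjusted p ran from 0.0495 to 0.643, with 1 calling it. CHAF1A, the large subunit of the same factor, had a difference of -0.06, and its groups overlapped. UHRF1, which brings the maintenance methyltransferase to new DNA, read 7.82, 7.70 and 7.85 in Δα-Cat and 8.03, 7.85 and 8.15 in α-Cat, a difference of -0.22 (SE 0.09, adjusted p = 0.476). The highest Δα-Cat array and the lowest α-Cat array of UHRF1 nearly touched. DNMT1, that methyltransferase, had a difference of -0.08. SLBP, which binds the stem-loop of histone mRNA, read 8.66, 8.54 and 8.68 in Δα-Cat and 8.58, 8.41 and 8.64 in α-Cat, a difference of 0.08 (SE 0.08, adjusted p = 0.833). SLBP was higher in Δα-Cat in each pair, by 0.08, 0.13 and 0.04, while the groups overlapped. Of the 5 genes of this role, 2 were lower at an unadjusted p under 0.05, against 6.16% of all genes.

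**Figure D4:**
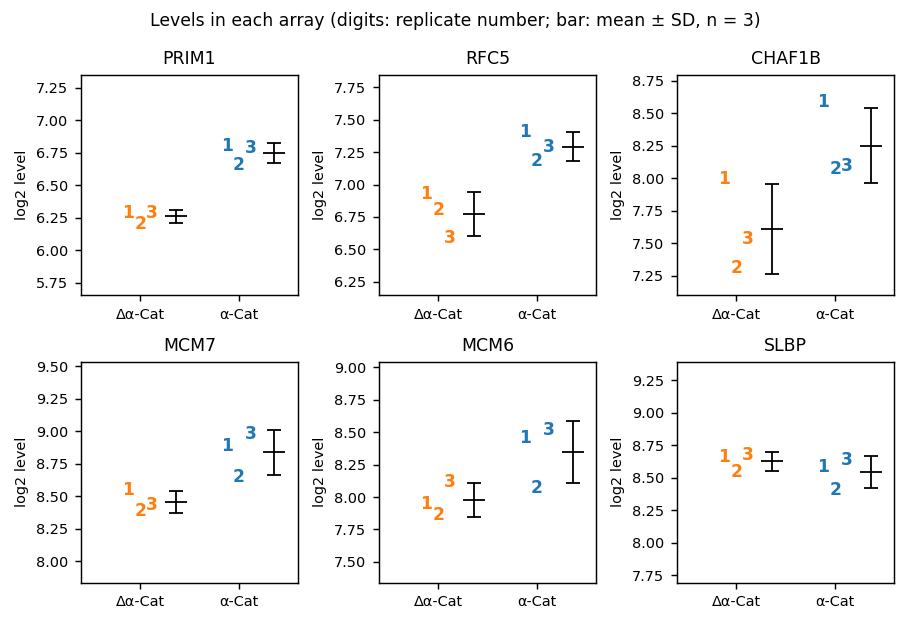
Log2 levels of PRIM1, RFC5, CHAF1B, MCM7, MCM6 and SLBP in each array; digits are replicate numbers and the bars beside them are means ± SD (n = 3 per group). PRIM1, RFC5, CHAF1B and MCM7 separate the groups, MCM6 overlaps through α-Cat replicate 2, and SLBP overlaps with a higher mean in Δα-Cat.

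Further genes of the pathway were read from lists chosen by function, with earlier results of these data known. Of 30 other measured replication factors, 27 had a negative difference, with a median of -0.17. At an unadjusted p under 0.05, 11 were lower, against 6.16% of all genes, and limma called 0. ORC3, a subunit of the origin recognition complex, read 6.37, 6.25 and 6.27 in Δα-Cat and 6.88, 6.67 and 6.68 in α-Cat, a difference of -0.44 (SE 0.08, adjusted p = 0.0889). POLD2, the B subunit of polymerase delta, read 8.03, 7.90 and 7.90 in Δα-Cat and 8.35, 8.23 and 8.32 in α-Cat, a difference of -0.36 (SE 0.06, adjusted p = 0.099). Both separated the groups. When only clusters with 1 symbol were tested, 4 of these 30 genes were called lower, against 1.3% of all genes. They were ORC2, ORC3, POLD2 and TICRR, a firing factor (adjusted p = 0.0416, 0.025, 0.0257 and 0.0412 in that fit). ORC2 and TICRR were named after their values were seen.

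Of 16 other genes of nucleotide supply, 13 had a negative difference, with a median of -0.11. At an unadjusted p under 0.05, 7 were lower and 1 was higher, against 6.16% and 6.96% of all genes, and limma called 0. Tested among clusters with 1 symbol only, 1 was called lower, MTHFD1 (adjusted p = 0.0394), against 1.3% of all genes. MTHFD1, a folate enzyme of the cytosol, read 8.95, 8.75 and 8.77 in Δα-Cat and 9.37, 9.13 and 9.36 in α-Cat, a difference of -0.46 (SE 0.09, adjusted p = 0.123). MTHFD2, its mitochondrial counterpart, read 7.41, 7.57 and 7.64 in Δα-Cat and 7.21, 7.13 and 7.31 in α-Cat, a difference of 0.32 (SE 0.08, adjusted p = 0.233) in the other direction. Both separated the groups. Upstream of S phase, 18 of 26 genes of G1 entry and its inhibitors had a negative difference, with a median of -0.04. Over all clusters 0 were called lower and 1 was called higher, against 0.255% and 0.371% of all genes. At an unadjusted p under 0.05, 4 were lower and 3 higher, against 6.16% and 6.96% of all genes. CDK6, a cyclin D kinase, read 6.31, 6.51 and 6.56 in Δα-Cat and 5.76, 5.62 and 5.84 in α-Cat, and rose 1.65-fold, a log2 change of 0.72 (SE 0.09, adjusted p = 0.0393). With the replicate block CDK6 was not called (adjusted p = 0.0569). Over 13 alternatives its adjusted p ran from 0.0116 to 0.185, with 6 calling it. Tested among clusters with 1 symbol only, 1 gene of this list was called lower, against 1.3% of all genes. That gene was MYC, a transcription factor of growth genes named after its values were seen (difference -0.40, adjusted p = 0.0206, and 0.0805 over all clusters).

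Genes of the later cell cycle were also read, from a list likewise chosen with earlier results of these data known. All 29 measured genes of mitosis and G2/M had a negative difference, with a median of -0.35, against -0.18 for the 48 genes of replication and G1/S. At an unadjusted p under 0.05, 20 of the 29 were lower, against 6.16% of all genes, and limma called 0. Tested among clusters with 1 symbol only, 1 was called lower, CDC25C (adjusted p = 0.0307), against 1.3% of all genes. CDC25C, a phosphatase that activates mitotic CDK1, read 6.43, 6.27 and 6.16 in Δα-Cat and 6.90, 6.67 and 6.86 in α-Cat, a difference of -0.53 (SE 0.09, adjusted p = 0.0978). CENPF, a kinetochore protein, read 6.91, 6.64 and 6.46 in Δα-Cat and 7.43, 7.08 and 7.34 in α-Cat, a difference of -0.61 (SE 0.13, adjusted p = 0.161). Their order of arrays resembled that of the replication genes in part: α-Cat replicate 2 was the lowest α-Cat array for 26 of the 29, and Δα-Cat replicate 1 the highest Δα-Cat array for 29. Averaged over the mitotic genes the level was 7.29, 7.06 and 6.92 in Δα-Cat replicates 1, 2 and 3, so replicate 3 was lowest there, whereas replicate 2 was lowest for the replication genes. The difference in size between the lists was not tested.

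**Figure D5:**
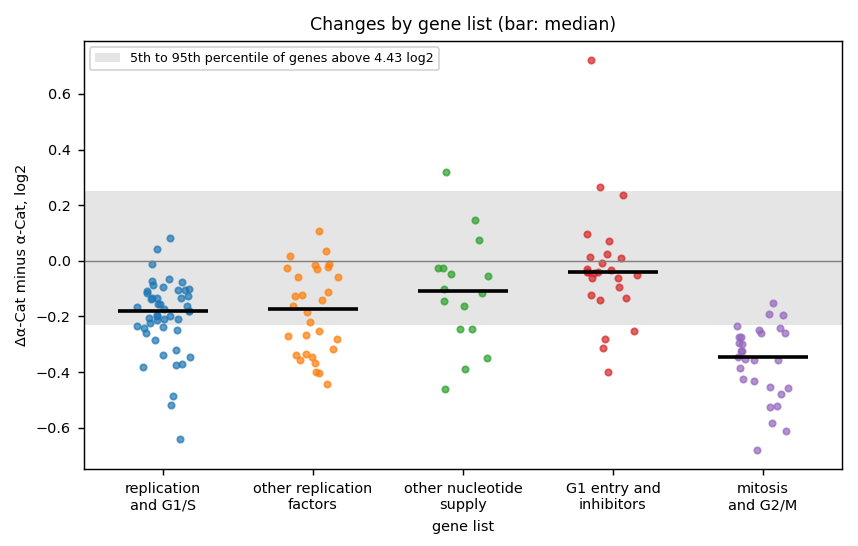
Fitted difference of each gene, Δα-Cat minus α-Cat in log2 units, for the 48 replication and G1/S genes and for 4 other lists; each point is a gene, black bars are list medians (-0.18, -0.17, -0.11, -0.04 and -0.35 from left to right), and the grey band spans the 5th to 95th percentile of 14792 genes above 4.43. Mitotic genes lie lowest, and CDK6 stands apart above the G1 entry list.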

How the data were processed

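Biotin-labelled cRNA from 6 samples was hybridised to Affymetrix arrays. The authors' deposited values come from RMA in Affymetrix Expression Console, per the submitters' processing notes; RMA corrects background, quantile-normalizes arrays and summarises probes. Its settings and build are not given in the sources used here. Since no scale is stated, log2 was assumed, because the usable deposited values lay between 1.26 and 14.24. Of 70513 rows, 4987 held a value without a decimal point and were left out; some genes may be lost with them. A further table with 6 columns of values that match no sample label was not used.

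Each gene was its 1-symbol cluster with the highest mean over the 6 arrays. limma 3.58.1 in R 4.3.3 (lmFit, eBayes) was fitted to all 65526 usable clusters without covariates, and p-values were adjusted over all of them; the fit was tested on simulated data. The 6 arrays were grouped by their titles. Residuals of same-numbered arrays correlated at 0.219, 0.214 and 0.128, all above 0.1, so the numbers were treated as pairs in an alternative fit with a replicate block; what a number stands for is not in the labels. Other alternatives were leaving out each array, median centring, cyclic loess, trended robust eBayes, clusters with 1 symbol only, leaving out dim clusters, and averaging a gene's clusters.

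The 49 genes, their 8 roles and the other lists were chosen with earlier results of these data known. Values in every array are given for the 3 genes of a role with the smallest p, any called gene, and MCM2, PCNA, CDC6, CCNE1, E2F1, RRM2 and TYMS; from the other lists any called gene, or else the 2 with the smallest p, are named. Promoter sequences are from RefSeq (GRCh38.p14). Tables and plots used Python 3.11.15, pandas 2.3.3, numpy 2.4.6 and matplotlib 3.10.9.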

Additional observations from a re-analysis of the deposited data

How the results depend on the processing

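The median difference of the 48 genes stayed negative under all 13 alternatives. It ran from -0.26 (without α-Cat replicate 2) to -0.13 (without α-Cat replicate 1) when 1 array was left out. Several alternatives could not move it, because the replicate block is balanced and each of the 48 genes has 1 cluster. The replicate block, trended robust eBayes, clusters with 1 symbol only, leaving out dim clusters and averaging a gene's clusters all gave -0.18. With 1 array left out, the count of genes lower at an unadjusted p under 0.05 ran from 9 to 34, the count called lower was 0 in each of the 6 fits, and the clusters called ran from 29 to 120, against 224 with all arrays; these fits hold fewer arrays. Testing clusters with 1 symbol only called 662 clusters and 2 of the 48 genes, and leaving out dim clusters called 483 clusters; both test fewer clusters. The fit with the replicate block called 156 clusters and 1 of the 48 genes, and changed the call of PRIM1 (lost), CHAF1B (gained) and CDK6 (lost) but no other call reported here for a named gene. Of 338 values of the 26 genes given in every array, 329 kept direction and side of the threshold. The call was lost in 7 (all PRIM1) and gained in 2 (RFC5 and CHAF1B), and 0 reversed. Of these genes only PRIM1 was called before any alternative was applied, so most of the 329 are uncalled genes that stayed uncalled. Direction could change only where an array was left out or the values were normalized again. All 48 genes lay above the level of dim clusters, RPA3 nearest to it.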
